A study of Drosophila melanogaster with 8 samples.

Results

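Binding of the Bicoid (Bcd) protein was described at the loci of 6 Drosophila melanogaster genes that pattern the trunk of the embryo and lie outside the Hox complexes: hairy (h), runt (run), odd skipped (odd), paired (prd), odd paired (opa) and Dichaete (D). Each locus is a fixed window of the dm3 build, and a deposited Bcd peak was counted when it overlapped a window by at least 1 bp. This gave 22 of the 2650 peaks called in zelda mutant embryos and 27 of the 3891 peaks called in wild-type embryos. The windows were h at chr3L:8635000-8685000, run at chrX:20535000-20580000, odd at chr2L:3590000-3625000, prd at chr2L:12065000-12095000, opa at chr3R:660000-710000 and D at chr3L:14150000-14200000. A window can also hold neighbouring genes. In the RefSeq gene table of Release 6, sob and Ugt36A1 flank odd, while Sox21b and nan flank D. Distances from the peaks to promoters were not measured, since a dm3 annotation was not used here.

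The 8 samples were embryos aged 1 to 3 h after egg laying, in 4 groups of 2: zelda mutant Bcd ChIP, zelda mutant input, wild-type Bcd ChIP and wild-type input. The ChIP used a purified rabbit serum raised against the complete Bcd protein, and the input groups had no antibody. The labels call the mutant only zelda mutant, without the allele or how the mother's own supply of Zelda was removed, and each ChIP pooled many embryos. The authors deposited 1 peak list per genotype, with no values per replicate, so the spread between replicates was not measured here and no test between the genotypes was run. Once duplicates were taken out, 10060479 ChIP tags were left for the mutant and 39154546 for wild type, a ratio of 0.257. A shallower library calls fewer and shorter peaks at the same p cutoff, so a wild-type peak with no mutant partner was not called at the mutant depth, which is not the same as unbound. The part of depth in the differences below was not tested.

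Bcd is a homeodomain protein that spreads from the anterior pole of the egg and switches on head and trunk genes by binding their enhancers. Zelda is a zinc finger protein of the early embryo that binds enhancers across the genome before their genes are transcribed and helps to make them accessible. Pair-rule genes divide the trunk into segments. Those that are switched on first, such as h and run, are expressed in stripes through separate enhancers that read the maternal and gap proteins, Bcd among them. The genes opa and D are grouped with them by function but are expressed in broad domains.

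All 6 loci held Bcd peaks in both lists. In the mutant, 21 of 22 peaks touched a wild-type one, a share of 95.5% (Wilson 95% interval 78.2 to 99.2), against a background of 74.4% of all mutant peaks on the chromosome arms. The mutant peak without a wild-type partner was in the D window. In wild type, 18 of 27 peaks coincided with a mutant one, a share of 66.7% (47.8 to 81.4). Over all wild-type peaks on the arms the share was 45.5%, a background not matched for peak strength. Of the 27 peaks, 15 were in the highest of 5 equal score classes of the arm peaks, where 62.0% had a mutant partner. The intervals count peaks as if they were separate, although peaks of 1 locus share their surroundings, and the differences from the background were not tested. A wild-type peak with exactly 1 mutant partner is called kept here, one with 2 or more is called split, and one with none is called lost. By that rule 16 peaks were kept (background 42.1%), 2 were split (background 3.36%) and 9 were lost (background 54.5%). These shares depend on the overlap asked for: with at least 50% of both peaks, 10 of 22 mutant peaks were matched (45.5%, against 50.4% on the arms) and 10 of 27 wild-type peaks (37.0%, against 33.4%). With a false discovery rate of at most 5% in both lists, all 6 remaining mutant peaks lay on a wild-type peak (77.3% on the arms), and 6 of the 18 remaining wild-type peaks had a mutant partner (33.3%, against 18.2% on the arms).

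The called regions were shorter in the mutant at every locus. Mutant peaks covered 30.9 kb of the windows and wild-type peaks covered 76.0 kb, and 38.1% of the wild-type called length lay under a mutant peak, against 31.2% over all wild-type arm peaks. The mean tag density over the called regions, in tags per kb and per 1000000 tags of the library (RPKM), was 16.4 in the mutant and 16.2 in wild type. In the mutant list the peaks had a median length of 1318 bp and a median fold enrichment of 4.58, which is the authors' value of ChIP signal over a local control background. In the wild-type list the median length was 2648 bp and the median fold 6.67. Over all arm peaks the median fold was 3.97 in the mutant and 5.33 in wild type.

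**Figure D1:**
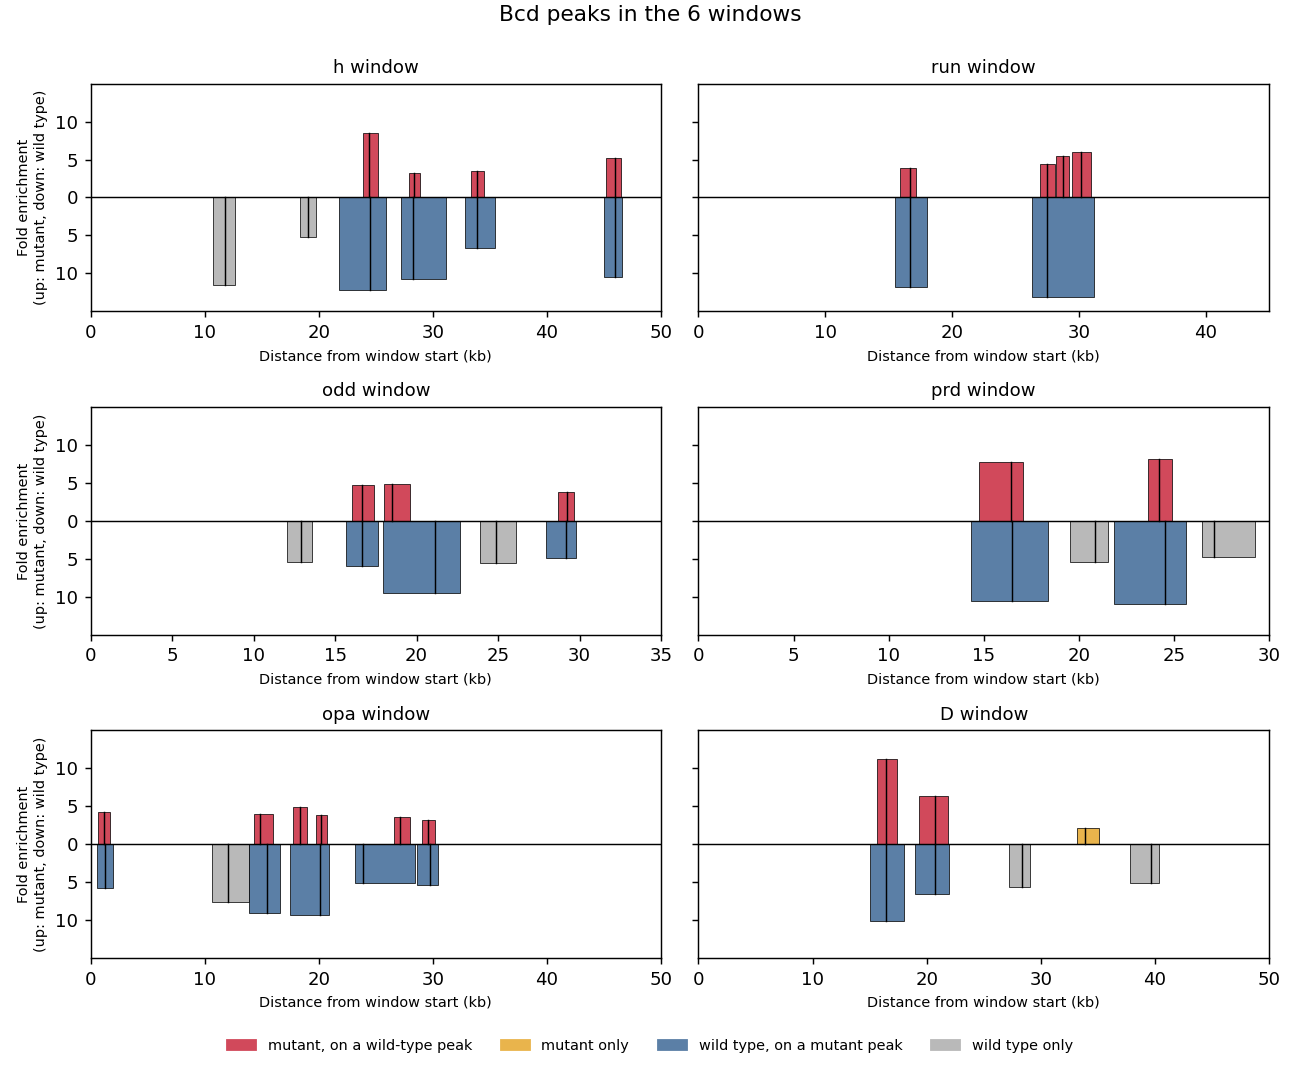
Bcd peaks in the 6 windows, drawn to scale along the window (x axis, kb from the window start). Bar height is the fold enrichment, upward for the zelda mutant and downward for wild type, bar width is the called peak, black lines mark summits, and colours show peaks with or without a partner in the other list. Of the 22 mutant peaks, 1 has no wild-type peak below it, and 9 of the 27 wild-type peaks have no mutant peak above them.

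The h gene encodes a basic helix-loop-helix repressor and is among the first pair-rule genes to form stripes. Its window held 4 mutant and 6 wild-type peaks, of which 4 were kept and 2 were lost. All 4 kept peaks had summits close together in the 2 lists, with distances of 2 to 74 bp, but the strength of the mutant peaks differed widely. The peak at 8658854 to 8660223 had a fold of 8.54 in the mutant with 275 tags (exact Poisson 95% interval 243 to 309), and its wild-type partner at 8656818 to 8660876 had a fold of 12.2 with 2783 tags (2681 to 2888). The next one, at 8662909 to 8663869, had a fold of 3.25 in the mutant with 106 tags (86.8 to 128), against a fold of 10.7 and 3702 tags (3584 to 3823) for its wild-type partner at 8662230 to 8666126. So a wild-type peak with more tags than its neighbour had a mutant peak with fewer.

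That second h peak was the extreme case among all pairs of the arms. Its RPKM was 11.0 in the mutant and 24.3 in wild type, a ratio of 0.452 (exact 95% interval 0.369 to 0.548, counting error only). This was the lowest ratio of the 1187 arm pairs in which 1 mutant and 1 wild-type peak matched only each other. The median ratio of these arm pairs was 1.15, with quartiles of 1.01 and 1.29. The ratio of fold enrichment, 0.303, was the 1183rd of 1187 in descending order, where the median was 0.728. The mutant peak had a MACS score of 63.59, close to the score of 50 at the p cutoff, while its wild-type partner had 3100, a score that 13 wild-type peaks share, so that their order is undefined. The score is the negative log10 of the authors' p-value, times 10.

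The other kept h peaks lay between these cases. The peak at 8668329 to 8669502 had a fold of 3.47 in the mutant, against 6.67 in wild type, and an RPKM ratio of 0.715 (0.599 to 0.847). The peak at 8680162 to 8681517 had a fold of 5.21 in the mutant, against 10.4 in wild type, with an RPKM ratio of 0.943 (0.811 to 1.09). Here the mutant peak spanned 0.841 times the wild-type length, the largest ratio of the window, whereas the 3 others spanned 0.247 to 0.443 times.

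The strongest lost peak of the 6 loci was also at h. It lay at 8645762 to 8647649, with 1277 tags (1208 to 1349), a score of 1121 and a fold of 11.6 in wild type, the 25th highest fold of 2827 arm peaks. The nearest mutant peak was 11.2 kb away. The kept h peak at the right of the window had fewer wild-type tags, 1070, and a lower fold and score than this lost one. The other lost h peak, at 8653338 to 8654780, was weaker, with a fold of 5.20 and a score of 153.88.

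The run gene encodes the founding member of the Runt family of DNA-binding proteins and is also an early striped gene. Its window held 4 mutant and only 2 wild-type peaks, and none of the wild-type peaks was lost. Mutant peaks at 20561978 to 20563160, 20563211 to 20564215 and 20564473 to 20565947, with folds of 4.38, 5.51 and 5.93, all lay on 1 long wild-type peak. That split peak, at 20561279 to 20566175, had a fold of 13.1 and 3597 tags (3480 to 3717). By fold, the wild-type run peaks were the 2nd and the 16th of 2827 on the arms.

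The 3 mutant run peaks lay 50 and 257 bp apart and together covered 74.8% of the wild-type peak. The first had its summit 5 bp from the wild-type summit. The third, 2709 bp from it, was the strongest of the 3, with 284 tags (252 to 319) against 153 (130 to 179) for the first. The mutant peak at the wild-type summit was thus the weakest of the 3 by fold and by score. By tag number the second was the lowest, with 145. The wild-type list gives 1 summit for the region, so a wild-type order along it was not measured. Their RPKM was 12.9, 14.3 and 19.1 in the mutant, against 18.8 over the entire wild-type peak.

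The other run peak was kept with a low signal in the mutant. At 20550885 to 20552180 it had a fold of 3.85 with 146 tags (123 to 172) in the mutant, against a fold of 11.8 with 1858 tags (1774 to 1944) for the wild-type peak at 20550518 to 20553063. The summits lay 48 bp apart. The RPKM was 11.2 in the mutant and 18.6 in wild type, and the ratio of 0.601 (0.504 to 0.711) was the 1184th of 1187. The ratio of fold, 0.325, was the 1177th.

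The odd gene encodes a zinc finger repressor. Its window held 3 mutant and 5 wild-type peaks, of which 3 were kept and 2 were lost. The strongest mutant peak by fold, at 3607992 to 3609598, had a fold of 4.86, 233 tags (204 to 265) and a summit at 3608522. It lay at the left end of the strongest wild-type peak, at 3607920 to 3612653, which had a fold of 9.56, 3623 tags (3506 to 3743) and a summit at 3611105. The summits were 2583 bp apart, the 21st largest distance of the 1187 arm pairs, and no mutant peak was called at the wild-type summit.

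The other kept odd peaks had matching summits and fold ratios above the arm median. The peak at 3606068 to 3607399 had a fold of 4.78 in the mutant, against 5.95 in wild type, with the summits 3 bp apart. The peak at 3618683 to 3619666 had a fold of 3.77 in the mutant, against 4.85 in wild type, with the summits 25 bp apart. This right peak was among the weakest wild-type peaks of the 6 loci, with scores of 63.99 in the mutant and 64.58 in wild type. A stronger wild-type peak between them, at 3613917 to 3616110, with a score of 524.62, a fold of 5.49 and 1244 tags (1176 to 1315), was lost. The other lost peak, at 3602064 to 3603581, had a fold of 5.41 and a score of 177.80.

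The prd gene encodes a protein with a paired domain and a homeodomain, which activates segment polarity genes. Its window held 2 mutant and 4 wild-type peaks, which alternated along the window: kept, lost, kept and lost. Both kept peaks were strong in both lists. The peak at 12079729 to 12082056 had a fold of 7.70 and 409 tags (370 to 451) in the mutant, and its wild-type partner at 12079337 to 12083398 had a fold of 10.6 and 3280 tags (3169 to 3394). The peak at 12088622 to 12089925 had a fold of 8.19 and 262 tags (231 to 296) in the mutant, against a fold of 11.0 and 2740 tags (2638 to 2845) for its wild-type partner at 12086830 to 12090626. Their fold ratios of 0.729 and 0.746 lay near the arm median of 0.728. The 2 lost prd peaks were the weaker ones, at 12084531 to 12086556 with a fold of 5.47 and at 12091482 to 12094247 with a fold of 4.72, and their scores were 122.17 and 134.12.

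The opa gene encodes a zinc finger protein of the Zic family, which acts later than the striped genes to change how they regulate each other. Its window held 6 mutant and 6 wild-type peaks, of which 4 were kept, 1 was split and 1 was lost. All mutant folds were modest, from 3.14 to 4.88, against 5.11 to 9.34 in wild type. Mutant peaks at 677722 to 678958 and at 679726 to 680712, with folds of 4.88 and 3.89, lay on the split wild-type peak, at 677510 to 680895 with a fold of 9.34. The second had its summit 18 bp from the wild-type one, and the first, 1827 bp from it, had the higher fold and the higher score of these mutant peaks, 201.72 against 56.40.

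A further opa peak had its summit elsewhere in the mutant. The longest wild-type peak of the 6 loci, 5311 bp at 683137 to 688447, had its summit near its left end, and its mutant partner at 686629 to 687971 lay in its right part, with summits 3205 bp apart. This was the 14th largest distance of the arm pairs. The folds were 3.64 in the mutant and 5.11 in wild type. At the strongest wild-type peak of the window by score, at 673932 to 676609, the fold was 3.99 in the mutant and 9.01 in wild type, a ratio of 0.443, and the summits were 621 bp apart. The remaining kept opa peaks were weak in both lists. The peak at 660677 to 661742 had a fold of 4.26 in the mutant, against 5.82 in wild type, and the peak at 689072 to 690190 had a fold of 3.14 in the mutant, against 5.37 in wild type. The lost peak, at 670638 to 673861, had a fold of 7.66 and 1836 tags (1753 to 1922), and only 70 bp separated it from its kept neighbour on the right.

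D encodes a high-mobility-group protein of the Sox family that acts with the pair-rule proteins. Its window held 3 mutant and 4 wild-type peaks. The 2 kept peaks had the highest ratios of mutant to wild-type fold and RPKM among the 16 pairs of the 6 loci. At 14165672 to 14167369 the mutant peak had a fold of 11.2, a score of 1414 and 524 tags (480 to 571), and its wild-type partner at 14165035 to 14167989 had a fold of 10.1, a score of 1302 and 2155 tags (2065 to 2248). This was the only one of the 16 pairs with the higher fold in the mutant, against 10.3% of the arm pairs. It had the 9th highest fold of the 1870 mutant arm peaks. The RPKM was 30.7 in the mutant and 18.6 in wild type, a ratio of 1.65 (1.49 to 1.81), the 15th highest of 1187.

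The neighbouring D pair was close to equal in fold. The mutant peak at 14169370 to 14171879 had a fold of 6.39 and 542 tags (497 to 590), and the wild-type peak at 14168957 to 14171948 had a fold of 6.60 and 1836 tags (1753 to 1922). The RPKM was 21.5 in the mutant and 15.7 in wild type, a ratio of 1.37 (1.24 to 1.51). Per 1000000 tags in the library, this peak held 53.9 tags in the mutant and 46.9 in wild type, a ratio of 1.15. It was the only one of the 16 pairs with more in the mutant, although the mutant region was shorter. Over the 1187 arm pairs this ratio had a median of 0.841 and an upper quartile of 1.08, so more in the mutant was not rare there. The summits of the D pairs lay 14 and 18 bp apart.

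The right part of the D window held peaks that did not match. The mutant-only peak, at 14183135 to 14185096, had a fold of 2.09, a score of 72.92, a false discovery rate of 11.6% and 259 tags (228 to 293). Its fold was the 1863rd of the 1870 mutant arm peaks, of which 25.6% had no wild-type partner. It lay between the lost wild-type peaks at 14177241 to 14179045 and at 14187864 to 14190377, which had folds of 5.62 and 5.06, and the nearer one was 2.77 kb away.

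**Figure D2:**
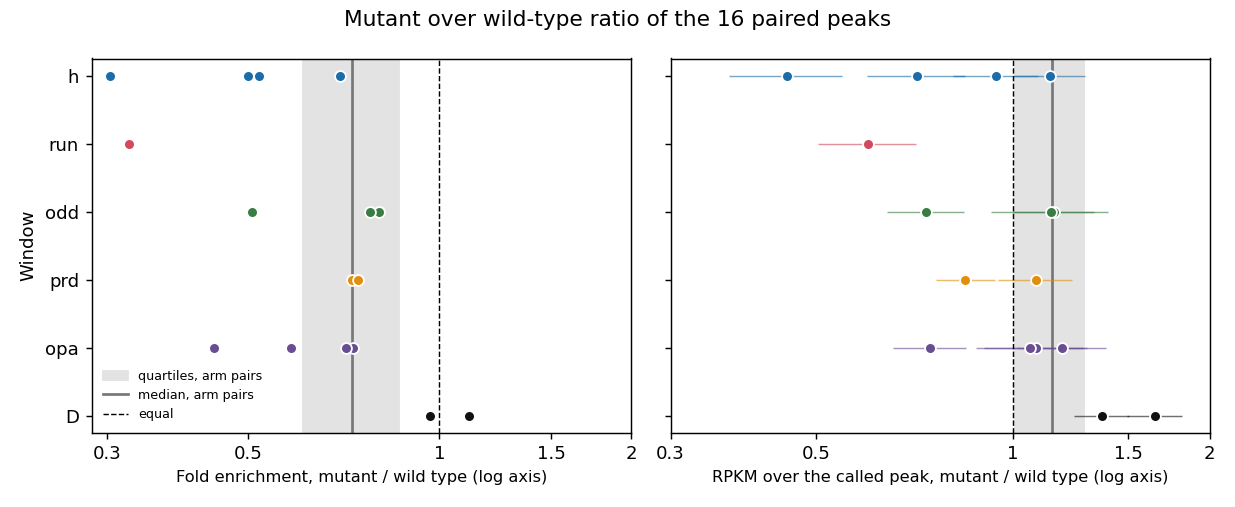
Ratio of mutant to wild-type fold enrichment (left) and RPKM (right) for the 16 matched pairs, by window, on log axes. Horizontal lines on the right are exact 95% intervals from counting error, the grey band and line are the quartiles and median of all 1187 arm pairs, and the dashed line marks equal values. The lowest RPKM ratios are 0.452 at h and 0.601 at run, and the highest are 1.65 and 1.37 at D.

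Over the 16 pairs, the fold ratio of mutant to wild type had a median of 0.706 and ranged from 0.303 to 1.11, while the median of all arm pairs was 0.728. Over all 16 pairs the median was thus near that of the arms, with pairs at both ends of the range. The RPKM was higher in the mutant in 9 of 16 pairs, against 76.3% of the arm pairs. The mutant peak was the shorter one in all 16, against 95.5% of the arm pairs, and its median length was 0.554 times that of its partner, against 0.757. Summits lay within 200 bp in 12 of 16 pairs, against 79.9% of the arm pairs. The exceptions were 2 pairs at opa, 1 at odd and the right one at prd, where the distance was 313 bp. The fold enrichments had a Spearman correlation of 0.49 over the 16 pairs and 0.55 over the 1187 arm pairs; these points share 1 library per genotype and are not replicates.

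The strong peaks were also described beside arm pairs with a wild-type fold of at least 10, a limit chosen after the values were seen. The wild-type fold is the denominator of the fold ratio, so this limit by itself lowers the ratio, and the ranks below only place the peaks within that selection. The 7 pairs of the 6 loci at this limit had a median fold ratio of 0.699 and a median RPKM ratio of 0.943, and the 53 arm pairs, these 7 included, had medians of 0.497 and 0.868. In descending order of these the second h peak had the lowest RPKM ratio and the 52nd fold ratio, and the kept run peak had the 51st RPKM ratio and the 47th fold ratio. The first D peak had the highest RPKM ratio and the 2nd highest fold ratio. Both prd peaks ranked 9th and 10th by fold ratio, and the first h peak 12th. By RPKM ratio the left prd peak ranked 35th. The h peak at the right of the window lay in the middle, 26th by fold ratio. The median ratio of mutant to wild-type length was 0.509 for the 7 pairs and 0.534 for the 53 arm pairs, so the shortening was similar there.

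**Figure D3:**
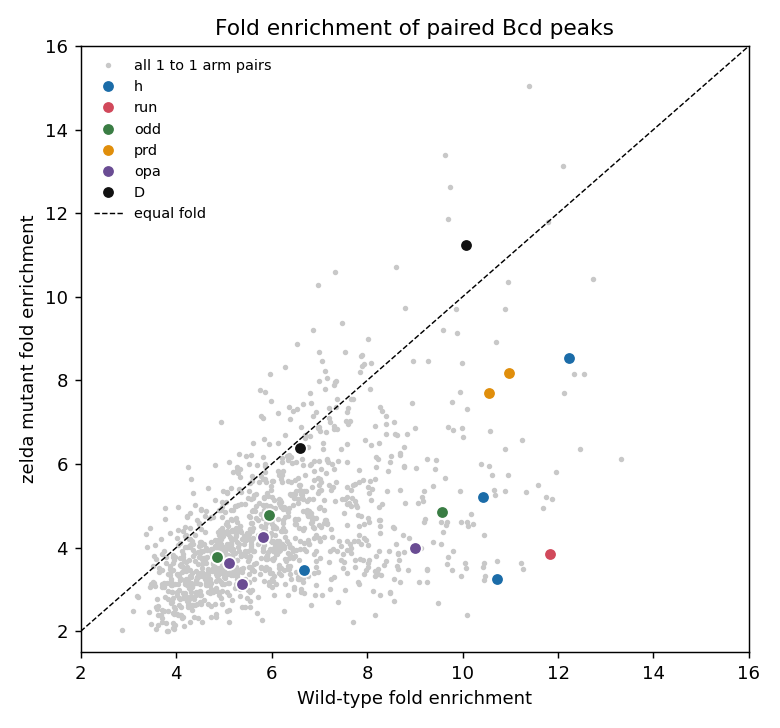
Fold enrichment in the zelda mutant (y axis) against wild type (x axis) for peaks that match 1 to 1, with all 1187 arm pairs in grey, the 16 pairs of the 6 loci in colour and the line of equal fold dashed. The first D peak lies above the line at 11.2 in the mutant and 10.1 in wild type, while an h peak lies at 3.25 in the mutant and 10.7 in wild type and a run peak at 3.85 in the mutant and 11.8 in wild type.

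By fold enrichment, the strongest mutant peak overlapped the strongest wild-type peak in all 6 windows. By score this held in 4 windows, with exceptions at h and odd, and by tag number in 2, at run and prd. Each window held only 2 to 6 peaks per list, and at run 3 of the 4 mutant peaks lay on the strongest wild-type peak. The same share at other loci was not measured. At h the wild-type list put the second peak first by score, while the mutant list put the first peak first. At odd the mutant score and tag number were highest at the peak of 3606068 to 3607399, whose wild-type partner scored 302.18 against 2353 for the strongest. Ranked within their lists by fold, 5 of the 22 mutant peaks and 12 of the 27 wild-type peaks lay in the upper 10% of the arm peaks.

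Lost peaks had lower wild-type folds than kept peaks of the same loci by their medians, with overlapping ranges. Lost peaks had a median wild-type fold of 5.47 (range 4.72 to 11.6, 9 peaks), and kept peaks one of 9.29 (4.85 to 12.2, 16 peaks). Over all wild-type arm peaks the same medians were 4.90 and 5.86, and the median of the entire arm list was 5.33. When the arm peaks were cut into 5 equal classes by wild-type score, 12 of 15 peaks of the 6 loci in the highest class had a mutant partner, against 62.0% of all arm peaks of that class (57.9 to 65.9). In the next class it was 3 of 4, against 50.8%. In the middle class it was 0 of 3, against 48.7%. In the 2 lowest classes it was 2 of 3 and 1 of 2, against 37.5% and 28.3%.

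The wild-type score was scaled by 0.257, the ratio of ChIP tags between the lists. It stayed at or above 50 for 15 of the 18 peaks with a mutant partner. It also did so for 4 of the 9 lost peaks, which lay at h, odd, opa and D. The 3 peaks with a partner and a scaled score below 50 were the right odd peak and the outermost opa peaks. Over the arms, 1202 wild-type peaks stayed at or above 50, and 56% of these had a mutant partner, against 15 of 19 in the 6 loci. In wild type the ChIP file (39154546 tags) was deeper than its control (22487837), and the deeper file was scaled to the shallower. The ratio that fits the wild-type scores may therefore be larger than 0.257. Scaled by 0.257, the lost peaks below 50 had scores of 45.7, 39.5, 34.5, 31.4 and 16.3. The peaks with a partner below 50 had 25.7, 24.4 and 16.6. A larger ratio would thus first bring lost peaks to 50, which would lower the share of 15 of 19. These counts hold for 0.257 only, and other ratios were not tested.

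**Figure D4:**
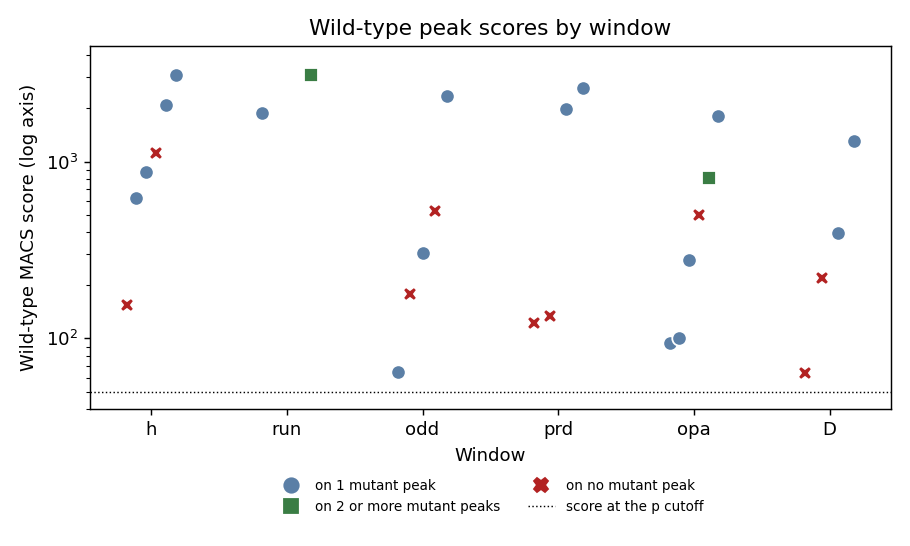
Wild-type MACS score of all 27 peaks by window (log axis), with symbols for peaks on 1, on 2 or more and on no mutant peak, and a dotted line at the score of 50 at the p cutoff. Lost peaks reach a score of 1121 at h, above 2 of its 4 kept peaks, and 524.62 at odd, above 2 of its 3 kept peaks, and at prd both lost peaks lie below both kept ones.

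The window limits left out some peaks. The closest were beside D, where a mutant peak at 14144242 to 14147641 with a fold of 8.31 lay 2.36 kb outside the window, and a wild-type peak at 14141817 to 14149075 with a fold of 10.5 and 2 mutant partners ended 0.925 kb outside. Beside run, a wild-type peak with a fold of 8.38 and no mutant partner began 3.99 kb outside. Beside odd, a matched pair lay 8.49 kb outside in the mutant list with a fold of 6.21, and 8.37 kb outside in the wild-type list with a fold of 8.70. The members nearest to an edge were at opa, where the first peak started 0.677 kb inside in the mutant and 0.532 kb inside in wild type, and at prd, where the last wild-type peak ended 0.753 kb inside.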

How the data were processed

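The submitters' processing notes name Bowtie2, MACS 1.4.2 and the build dm3. Per the file headers, each of the 2 lists came from 1 ChIP and 1 control file, 50 bp tags, a p cutoff of 1e-05, at most 1 tag per position and scaling of the deeper file to the shallower. The way replicates were joined is not stated there. The deposited columns are a raw tag count, a score, a fold enrichment and a false discovery rate in percent. The score is the negative log10 of p, times 10, and the fold is the ratio to the local control background. These are the authors' own values, used to describe, rank and select peaks within a list. For matched pairs, the fold and RPKM of the mutant were also divided by those of wild type. The wild-type score was also scaled by the ratio of ChIP tags and set against the score at the p cutoff. The lists differ in depth, and the part of depth in these ratios was not tested.

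The control held 17035242 tags in the mutant and 22487837 in wild type. Positions are 1-based; a summit is the start plus the offset minus 1. RPKM was the tag count per kb of the called peak and per 1000000 filtered ChIP tags, so it depends on the called length. Shares have Wilson intervals, tag counts exact Poisson and RPKM ratios exact binomial (Clopper-Pearson) 95% intervals; all cover counting error only. Of the 6 gene names, 5 matched the Release 6 table by symbol and h by its synonym. The genes and windows were chosen with earlier results of these data known, and all 6 genes and all their peaks are named. The alternatives were other overlap rules, stricter score or FDR limits, a depth-scaled score, windows by summit, other rankings, and joining close peaks, the last of which was chosen after seeing the data. The search for Bcd and Zelda motifs was not run, since sequences were not used here. Finding of kept, split and lost peaks was checked on simulated partners. Software was scipy 1.17.1 and numpy 2.4.6 under Python 3.11.15, with pandas 2.3.3, and matplotlib 3.10.9 for figures.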

Additional observations from a re-analysis of the deposited data

How the results depend on the processing

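The share of mutant peaks on a wild-type peak, 95.5%, became 45.5% under the reciprocal rule, an overlap of 50% of both peaks (50.4% on the arms, the only share here below its background), 63.6% by summits within 200 bp (54.8% on the arms), 100% with a score of at least 100 (74.6%) and 100% with an FDR of at most 5% (77.3%). The share of matched wild-type peaks, 66.7%, became 37.0% under that rule (33.4% on the arms) and 33.3% with an FDR of at most 5% in both lists (18.2% on the arms). It stayed within its interval for summits within 200 bp (51.9%, against 36.3% on the arms), a score of at least 100 (54.2%, against 40.4%), the depth-scaled score (78.9%, against 56.0%), windows by summit (66.7%, against 45.5%) and close peaks joined (69.6%, against 45.9%). The 2 split peaks became 0 under the reciprocal rule, 0 by summits, 1 with the score limit and 0 with the FDR limit. Joining peaks less than 300 bp apart gave 3, but not the same ones. The run split was gone, since its mutant peaks lay 50 and 257 bp apart and were joined. The opa split at 677510 to 680895 stayed. The others were new and came from joined wild-type neighbours, 264 bp apart at odd and 182 bp apart at opa. The 22 mutant peaks became 6 with the FDR limit, when 18 wild-type peaks were left, and 15 with the score limit, when 24 were left. The wild-type length under mutant peaks, 38.1%, became 32.0% with the score limit and 18.2% with the FDR limit; fewer peaks remain under either limit by construction. The state of 19 of 27 wild-type peaks was the same under the reciprocal rule and of 21 by summits. Ranked by tag number, 2 mutant and 6 wild-type peaks were in the upper 10% of the arms, and the strongest peaks of the lists overlapped in 2 windows; the cause was not tested. No paired analysis was possible because each genotype has 1 list without values per replicate, and leaving out a replicate was likewise not possible. The mutant depth limits what can be called absent.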
